A study of Saccharomyces cerevisiae with 8 samples.

Results

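The 10 genes described here encode enzymes of de novo purine synthesis in Saccharomyces cerevisiae, the budding yeast. They are ADE1, ADE2, ADE4, ADE6, ADE8, ADE12, ADE13, ADE16 and ADE17, which lead to IMP and AMP, and MTD1, a folate enzyme. They were found by symbol in the array's probe annotation, and all 10 were among the 5449 genes tested. The strain was BY4741, a haploid laboratory strain with deletions in HIS3, LEU2, MET17 and URA3 that all groups share. Its cultures had reached saturation in rich glucose medium (YPD, 2% dextrose) at 30 °C. The groups were time-zero controls in 2% isopropanol alone (n = 2), and cultures exposed to 0.05 mM TFM in the same solvent, with 2 RNA samples taken after 1 h, 2 after 2 h and 1 after 4 h. The labels do not spell out TFM; the name is in common use for a lampricide, a nitrophenol that uncouples respiration from ATP synthesis. The 4 h RNA sample was read on 2 technical arrays, which were averaged for every test. The later times have no cultures with solvent alone, so exposure to TFM and time after time zero cannot be told apart. The series title puts the question as the response of yeast to TFM as exposure goes on.

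De novo synthesis builds the purine ring on phosphoribosyl pyrophosphate (PRPP) in a chain of steps that ends in IMP, the branch point to AMP and GMP. Glycine, glutamine, aspartate and formyl groups carried by folate supply the atoms of the ring. In yeast, most genes of the chain are activated by the transcription factors Bas1 and Pho2, which respond to pathway intermediates that build up when purines are short. The last steps to IMP are catalysed by a bifunctional enzyme, AICAR transformylase and IMP cyclohydrolase, that yeast encodes by a pair of isozyme genes, ADE16 and ADE17.

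Values are log2 signals per probe set, a set of probes for 1 gene, after RMA, which corrects background and brings the arrays to a shared distribution. A fall of 1 is a 2-fold fall. The scale cannot show a change in the total amount of mRNA of a cell, and fewer transcripts per cell cannot be told apart from fewer cells with the transcript. Levels of different probe sets are not comparable with each other, so each gene is compared only with itself. The mean of ADE4, 8.98, lay below the 25th percentile of all values (10.01), and it is called dim; the other members lay above it. Over all genes the root mean square SD between samples was 0.085 at 2 h, and larger in the controls (0.16) and at 1 h (0.17). Control probe sets for ribosomal RNA (17 in all) had a median signal of 9.76 and 9.97 at time zero, 10.5 and 11.8 after 1 h, 11.4 and 13.0 after 2 h and, in the 4 h sample, 12.2 and 12.1, so all samples in TFM lay above the controls. The mean difference between the 3' and 5' ends of 10 control transcripts was 1.55 in control replicate 1 and between 1.25 and 1.36 on the other arrays. The part of either measure in the results below was not tested.

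ADE17 was the only member past the test in any comparison, and its signal fell at 2 h and at 4 h against time zero. It read 12.66 and 12.63 at time zero, 12.53 and 12.36 after 1 h, 11.66 and 11.63 after 2 h and, in the 4 h sample, 11.35 and 11.33. The samples did not overlap between any of the times, and the order ran down from time zero to 4 h. Of all genes, 32.2% lay wholly below the controls at 1 h and 31.5% at 2 h. Wholly below the 1 h samples at 2 h were 27.1% of all genes. At 2 h ADE17 averaged 11.65 ± 0.02 (SD, n = 2), against 12.64 ± 0.02 (SD, n = 2) in the controls, a change of -0.999 (SE 0.08, adjusted p = 0.0473) or a 2.00-fold fall. At 4 h it stood at 11.34 (n = 1), a change from the controls of -1.30 (SE 0.10, 95% interval -1.55 to -1.06, adjusted p = 0.00529) or a 2.47-fold fall. The test is limma, fitted over all genes and samples, with Benjamini-Hochberg adjustment over all 5449 genes.

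Most of the ADE17 difference lay between 1 h and 2 h. At 1 h it averaged 12.45 ± 0.12 (SD, n = 2), a change from the controls of -0.20 (95% interval -0.40 to 0.00, adjusted p = 0.188) that did not pass. At 2 h it was lower than at 1 h by -0.80 (SE 0.08, adjusted p = 0.0233), as the only member of the 2.51% of all genes called lower. At 4 h it was lower than at 1 h by -1.10 (SE 0.10, adjusted p = 0.00639), again as the only member, where 8.53% of all genes were called lower. The 2 h against 1 h call was lost without either 2 h replicate (adjusted p = 0.244 and 0.165). The difference between 4 h and 2 h was -0.31 (95% interval -0.56 to -0.06, adjusted p = 0.321), so these neighbours in the order were not separated by the test, which called 0.863% of all genes and 0 members. An unadjusted p under 0.05 was seen for 2 of the 10 members in this comparison, and for 12.1% of all genes. Comparisons that share a group share its error.

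Set against all genes, ADE17 had the smallest p-value of the 5449 at 2 h and the tenth smallest at 4 h. By size, it had the 14th lowest change at 2 h and the 16th lowest at 4 h. At 2 h the test called 0.0918% of all genes lower, and 1 of the 10 members. At 4 h it called 3.73% lower, and again 1 of 10. Of all genes 6.51% passed the F test over the 3 times, where ADE17 had adjusted p = 0.00702. The call at 2 h was lost after quantile normalisation (-0.98, adjusted p = 0.0986) and when control replicate 1 was left out (-0.99, adjusted p = 0.0771). It was also lost when 2 h replicate 1 (-1.01, adjusted p = 0.472) or the other 2 h sample (-0.99, adjusted p = 0.429) was left out. The call at 4 h was lost only in a fit of the control and 4 h samples alone (-1.30, adjusted p = 0.0532), which has 3 samples.

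**Figure D1:**
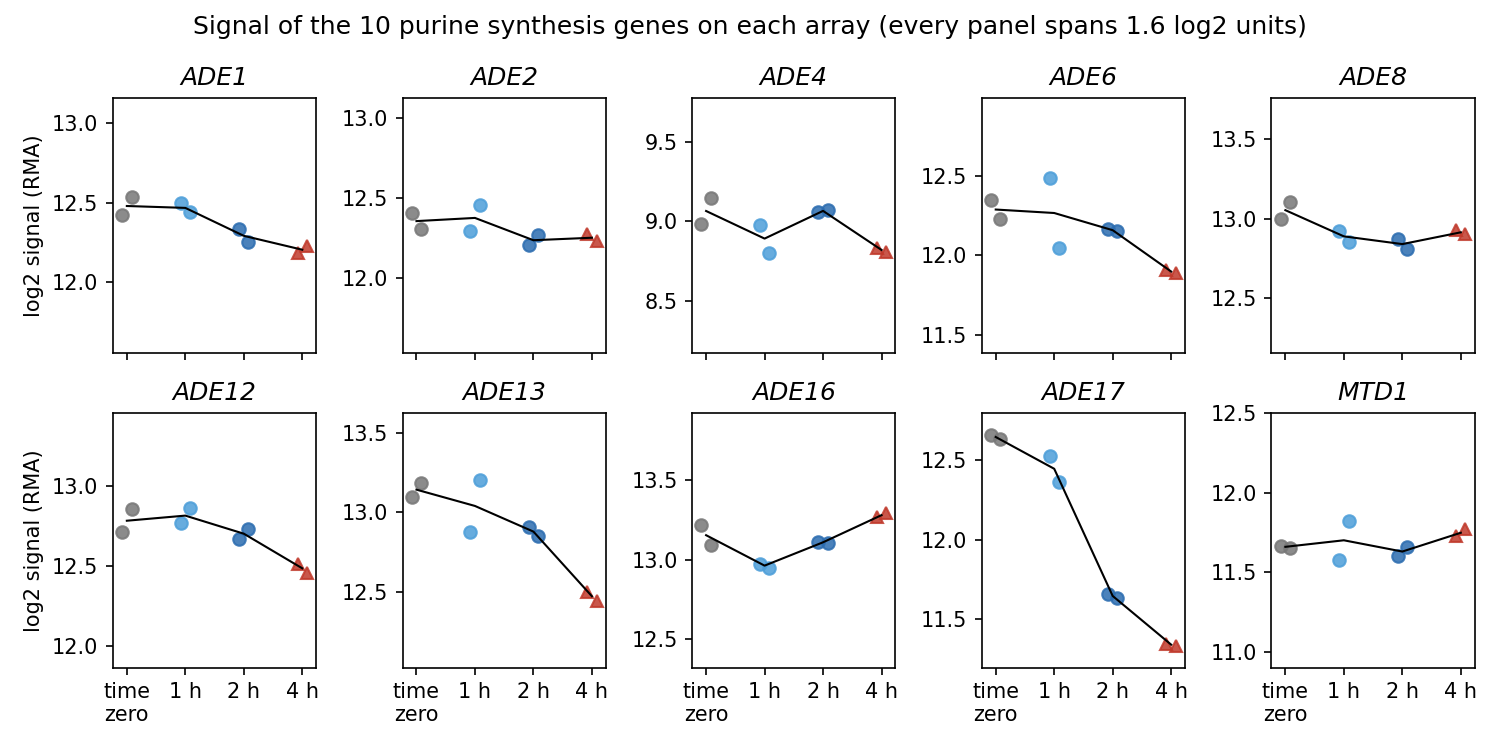
Log2 RMA signal of each of the 10 genes (vertical axes, each 1.6 log2 units tall) at time zero, 1, 2 and 4 h. Circles are RNA samples, triangles the 2 technical arrays at 4 h, and lines join the means. ADE17 spans 1.32 log2 units over the 7 samples, and ADE13 spans 0.73.

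ADE16, the other isozyme gene for the last steps to IMP, did not show the fall of ADE17. It read 13.22 and 13.09 at time zero, 12.98 and 12.95 after 1 h, 13.11 and 13.11 after 2 h and, in the 4 h sample, 13.27 and 13.29. The 1 h samples were the lowest, and the 4 h arrays the highest. Its change from the controls was -0.19 at 1 h (95% interval -0.38 to 0.00, adjusted p = 0.178), -0.04 at 2 h (-0.23 to 0.14, adjusted p = 0.869) and 0.13 at 4 h (-0.11 to 0.36, adjusted p = 0.511). A 2-fold fall therefore lies outside its interval at each time. Between 4 h and 1 h it differed by 0.32 (adjusted p = 0.0773).

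On the same array, the ADE17 signal minus the ADE16 signal was -0.56 and -0.46 at time zero, -0.45 and -0.59 after 1 h, -1.45 and -1.47 after 2 h and -1.94 in the 4 h sample. The level of this difference depends on the probes and has no meaning of its own, but its change over time is the same under any constant added to an array. The 2 h and 4 h values lay below all values at time zero and 1 h. This difference was looked at with the results known and was given no test. Each probe set is annotated to 1 gene of the pair, and how far either cross-hybridises with the other's transcript was not tested.

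**Figure D2:**
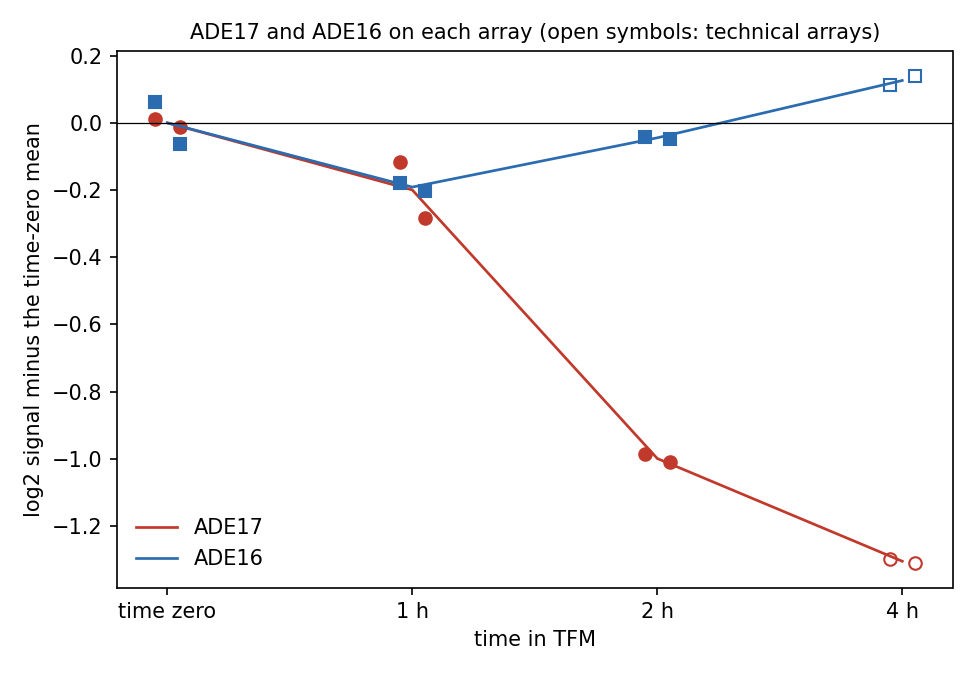
Log2 signal of ADE17 and ADE16 minus each gene's time-zero mean (vertical axis) over time in TFM. Points are arrays, open symbols the technical arrays at 4 h, and lines join the means; ADE17 reaches -1.30 at 4 h, and ADE16 reaches 0.13.

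The early and middle steps of the chain showed no call. ADE4 encodes the amidotransferase that commits PRPP to the pathway. It read 8.98 and 9.15 at time zero, 8.98 and 8.80 after 1 h, 9.06 and 9.07 after 2 h and, in the 4 h sample, 8.83 and 8.81, with a change of 0.00 at 2 h (95% interval -0.23 to 0.23) and -0.24 at 4 h (-0.53 to 0.04). ADE8 encodes the enzyme that adds the first formyl group. It read 13.00 and 13.11 at time zero, 12.93 and 12.86 after 1 h, 12.87 and 12.81 after 2 h and, in the 4 h sample, 12.93 and 12.90. Its samples at 1 h and 2 h lay below the controls, by -0.16 (adjusted p = 0.237) and -0.21 (adjusted p = 0.368). ADE6, which encodes the next, glutamine-dependent enzyme, differed most between replicates, with 12.49 and 12.04 at 1 h. It read 12.35 and 12.23 at time zero, 12.16 and 12.15 after 2 h and, in the 4 h sample, 11.91 and 11.89, where its change was -0.39 (95% interval -0.82 to 0.04, adjusted p = 0.289).

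ADE2 and ADE1 encode the carboxylase and the synthetase that follow closure of the first ring; loss of either makes yeast colonies red. ADE2 read 12.41 and 12.30 at time zero, 12.30 and 12.45 after 1 h, 12.20 and 12.27 after 2 h and, in the 4 h sample, 12.27 and 12.23. It spanned 0.25 log2 units over the 7 samples, with a change of 0.02 at 1 h, -0.12 at 2 h and -0.10 at 4 h (adjusted p = 0.912, 0.650 and 0.645). ADE1 read 12.42 and 12.53 at time zero, 12.49 and 12.44 after 1 h, 12.33 and 12.25 after 2 h and, in the 4 h sample, 12.18 and 12.23. At 2 h 31.5% of all genes lay wholly below the controls, and 27.1% wholly below the 1 h samples. The 2 h and 4 h values of ADE1 lay below all those at time zero and 1 h. The change was -0.19 at 2 h (95% interval -0.38 to 0.01, adjusted p = 0.425) and -0.27 at 4 h (-0.51 to -0.04, adjusted p = 0.193). Its profile over the 7 samples had r = 0.94 with that of ADE17, as a description of 7 points from 4 groups.

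ADE13 and ADE12 act in the branch from IMP to AMP, and ADE13 also in the chain to IMP. ADE13 encodes adenylosuccinate lyase. It read 13.10 and 13.19 at time zero, 12.88 and 13.20 after 1 h, 12.91 and 12.85 after 2 h and, in the 4 h sample, 12.50 and 12.45. The 4 h arrays were the lowest, while the 1 h samples overlapped the controls. ADE13 had a change at 4 h of -0.67 (SE 0.15, 95% interval -1.02 to -0.32, adjusted p = 0.0609), just outside the threshold of 0.05. It passed in 4 of 14 alternatives: with a trended prior (adjusted p = 0.0188), without dim genes (adjusted p = 0.0273) and without either 1 h replicate (-0.67). In the other 10 it did not pass, among them median centring (-0.64, adjusted p = 0.0972) and quantile normalisation (-0.65, adjusted p = 0.0786). Without a control replicate its change was -0.71 or -0.63, and it did not pass either. ADE12 encodes adenylosuccinate synthetase, the first enzyme of the AMP branch. It read 12.71 and 12.86 at time zero, 12.77 and 12.86 after 1 h, 12.67 and 12.73 after 2 h and, in the 4 h sample, 12.51 and 12.46, a change at 4 h of -0.30 (95% interval -0.56 to -0.04, adjusted p = 0.190).

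MTD1 encodes a cytosolic methylenetetrahydrofolate dehydrogenase, which interconverts the folate forms that purine synthesis draws on. It read 11.67 and 11.66 at time zero, 11.58 and 11.83 after 1 h, 11.60 and 11.66 after 2 h and, in the 4 h sample, 11.73 and 11.77. Its groups overlapped at 1 h and 2 h, and its change at 4 h was 0.09 (95% interval -0.21 to 0.38, adjusted p = 0.739). A 2-fold change in either direction lies outside its intervals at all 3 times.

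**Figure D3:**
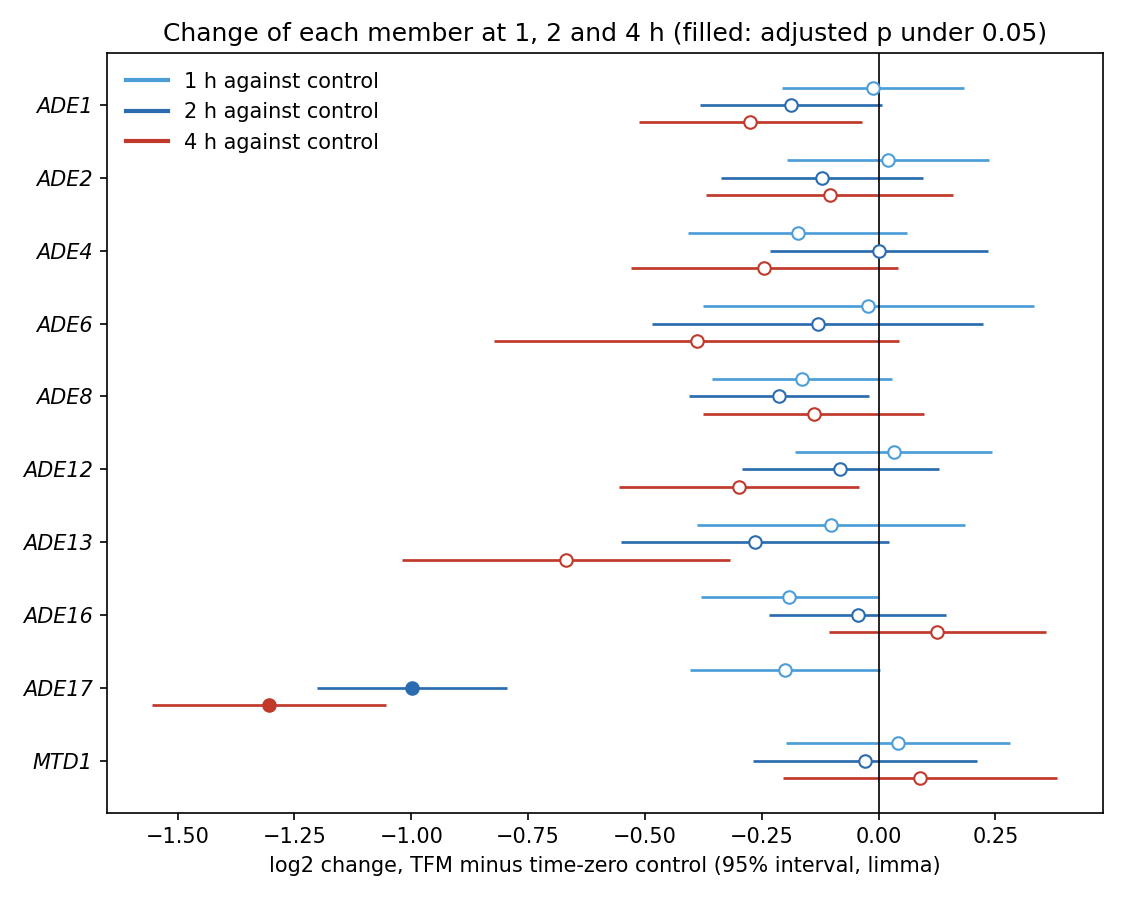
Log2 change of each gene in TFM minus the time-zero control, with limma's 95% interval, at 1, 2 and 4 h. Filled points passed an adjusted p of 0.05; they are ADE17 at 2 h (-0.999) and at 4 h (-1.30).

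As a group, the members' changes from the controls had a median of -0.06 at 1 h, -0.12 at 2 h and -0.26 at 4 h, beside -0.03, -0.02 and 0.00 over all genes. Without ADE17 the medians were -0.02, -0.12 and -0.24. Negative changes were seen in 7, 9 and 8 of the 10, beside 3046, 3065 and 2755 of all 5449 genes. At 1 h 0 of 10 passed in limma, where 4.99% of all genes did, and 1 had an unadjusted p under 0.05, beside 27.5% of all genes. At 4 h 4 of 10 had an unadjusted p under 0.05, beside 19.8% of all genes. The samples in TFM lay wholly below the controls for 4 of 10 members at 1 h (ADE4, ADE8, ADE16 and ADE17), where 32.2% of all genes did. At 2 h they did so for 6 of 10 (ADE1, ADE2, ADE6, ADE8, ADE13 and ADE17), where 31.5% of all genes did. The members did not move as a block over the 7 samples. The r of each with the mean of the other members was 0.93 for ADE17, 0.92 for ADE1 and 0.81 for ADE13, but 0.25 for ADE4, -0.23 for MTD1 and -0.51 for ADE16. ADE17, with the widest range, weighs most on the mean used for the others. With ADE17 alone, r was 0.94 for ADE1, 0.80 for ADE13, 0.21 for ADE4, -0.12 for MTD1 and -0.45 for ADE16.

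Neighbouring pathways were read from 9 lists with 58 genes measured of 59 listed. ADE5,7, the remaining gene of the chain, has no probe set under that name in the annotation and was not analysed here. Against the controls, 1 of the 58 rose at 1 h and 0 fell, 0 passed at 2 h, and 0 rose and 3 fell at 4 h. Their median changes were -0.04, -0.03 and -0.04. At 1 h the test called 3.47% of all genes higher, and at 4 h it called 3.73% lower, beside 5.17% of the 58, so neither count is read as particular to these lists. At 2 h, where 0 of the 58 passed in limma, 9 (15.5%) had an unadjusted p under 0.05, beside 12.3% of all genes. The genes that passed came from 4 lists and are given next. Against the controls 0 passed in those of regulators (3 genes), histidine synthesis (7), PRPP synthesis (5) and pyrimidine synthesis (8). The 7 include HIS3, which carries a deletion in this strain, so its values do not describe an intact gene.

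In the branch to GMP, 1 of 5 genes fell, IMD3, which encodes an IMP dehydrogenase. IMD3 read 11.19 and 11.06 at time zero, 11.00 and 11.05 after 1 h, 10.68 and 10.65 after 2 h and, in the 4 h sample, 10.32 and 10.38. Like ADE17 it was lower at 2 h than in any sample at time zero or 1 h, and lowest at 4 h, with a change at 4 h of -0.78 (SE 0.10, adjusted p = 0.0171). The call was lost without control replicate 1 (adjusted p = 0.0682) and without either 2 h replicate (adjusted p = 0.0785). IMD2, another IMP dehydrogenase gene, known to be induced when guanine nucleotides are short, is dim. It had a change of -0.47 at 1 h (adjusted p = 0.0637), -0.30 at 2 h (adjusted p = 0.377) and -0.15 at 4 h (adjusted p = 0.610). Its probe set is of a kind (_x_at) that can share probes with similar genes, so which IMD gene it reads is uncertain.

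Of 11 salvage and interconversion genes 1 fell at 4 h, ADK1, the main adenylate kinase, which exchanges phosphate among AMP, ADP and ATP. ADK1 read 13.05 and 13.27 at time zero, 13.24 and 13.16 after 1 h, 13.03 and 12.93 after 2 h and, in the 4 h sample, 12.39 and 12.43, a change at 4 h of -0.75 (SE 0.12, adjusted p = 0.0324). Only the 4 h arrays stood clear of the controls by more than the replicates differed. Of 14 folate and glycine genes 1 fell at 4 h, MIS1, the mitochondrial C1-tetrahydrofolate synthase. MIS1 read 10.98 and 10.88 at time zero, 10.92 and 10.67 after 1 h, 10.62 and 10.58 after 2 h and, in the 4 h sample, 10.19 and 10.15, a change at 4 h of -0.76 (SE 0.13, adjusted p = 0.0348). Without either control the calls on ADK1 (adjusted p = 0.0593 and 0.0781) and MIS1 (adjusted p = 0.109 and 0.0796) were lost, as they were without either 2 h replicate (adjusted p = 0.112 for ADK1 and 0.118 for MIS1). In fits of the control and 4 h samples alone, the calls on IMD3 (adjusted p = 0.103), ADK1 (adjusted p = 0.117) and MIS1 (adjusted p = 0.0991) were lost as well. ADE3, its cytosolic counterpart, which makes the formyl donor for the purine ring, did not pass. Its change was -0.30 at 1 h (adjusted p = 0.108), -0.09 at 2 h (adjusted p = 0.782) and 0.16 at 4 h (adjusted p = 0.493).

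Of 4 purine transport genes 1 rose, FCY2, the permease for adenine, hypoxanthine and cytosine. The other 3 had negative changes at 1 h and did not pass. They were FCY21 (-0.36, adjusted p = 0.0604), FCY22 (-0.46, adjusted p = 0.123) and FUN26 (-0.24, adjusted p = 0.122), of which FCY21 and FCY22 are dim. FCY2 read 12.32 and 12.24 at time zero, 12.64 and 12.68 after 1 h, 12.87 and 12.89 after 2 h and, in the 4 h sample, 12.71 and 12.68. Both samples in TFM lay above the controls for 23.5% of all genes at 1 h and 21.1% at 2 h. For FCY2 all values in TFM lay above the controls. Its change was 0.38 at 1 h (SE 0.07, adjusted p = 0.0439), 0.60 at 2 h (SE 0.07, adjusted p = 0.0679) and 0.41 at 4 h (SE 0.09, adjusted p = 0.0619), of which only that at 1 h passed, as did the F test (adjusted p = 0.0320). The threshold differs between comparisons, since fewer genes passed at 2 h. The 1 h call was lost when either control, 1 h replicate 2 or either 2 h replicate was left out (adjusted p from 0.0931 to 0.143), and in a fit of the control and 1 h samples alone (adjusted p = 0.124).

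The regulators did not pass. BAS1 read 10.20 and 10.26 at time zero, 11.13 and 10.62 after 1 h, 10.42 and 10.27 after 2 h and, in the 4 h sample, 10.44 and 10.50. The 1 h samples were the highest but differed by 0.51 from each other, and the change at 1 h was 0.64 (SE 0.17, adjusted p = 0.0717). PHO2 had a change of -0.07 at 1 h, 0.11 at 2 h and 0.16 at 4 h (adjusted p = 0.668, 0.691 and 0.508). Between 4 h and 1 h, 4 of the 58 list genes were called lower: ADK1, IMD3, MIS1 and URA7. That is 6.9%, beside 8.53% of all genes, and 0 of the 58 were called higher. In pyrimidine synthesis, URA7, a dim CTP synthase gene, was lower at 4 h than at 1 h by -1.42 (SE 0.27, adjusted p = 0.0287). It read 10.17 and 9.55 after 1 h and, in the 4 h sample, 8.43 and 8.45. Without either 2 h replicate all 4 of these calls between 4 h and 1 h were lost. In a fit of the 1 h and 4 h samples alone those on IMD3 and MIS1 were lost, while those on ADK1 and URA7 held.

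**Figure D4:**
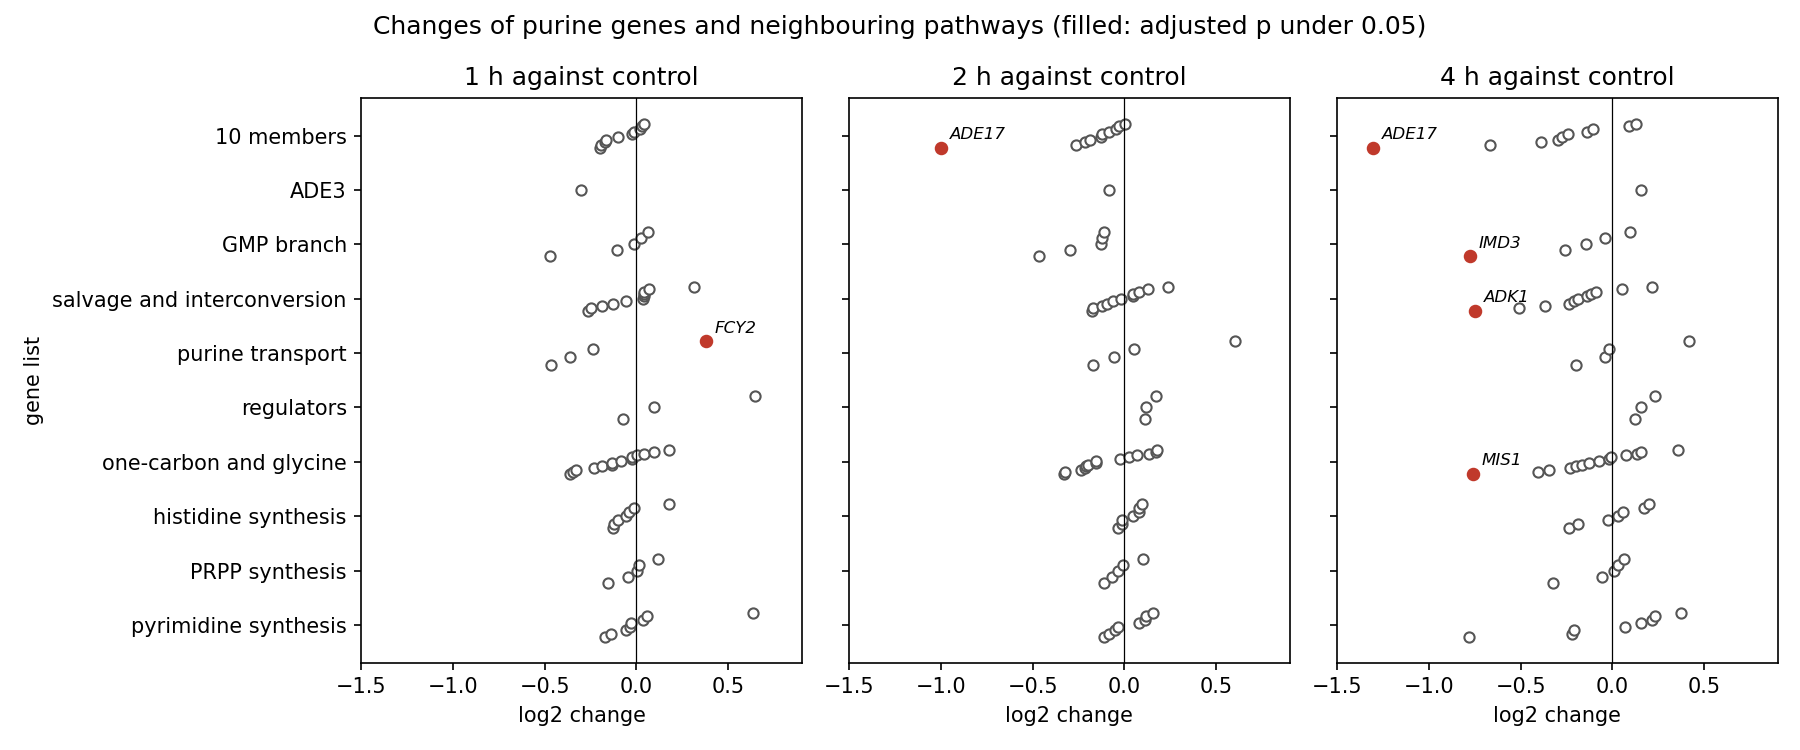
Log2 change against the time-zero controls at 1, 2 and 4 h (panels) for the 10 members and 9 lists of neighbouring genes (rows). Each point is a gene, and filled points passed an adjusted p of 0.05; ADE17 stands lowest at 2 h (-0.999) and at 4 h (-1.30).

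The genes most like the members were sought among 1955 genes with a range of at least 0.5 log2 units over the 7 samples. The 8 with the highest r to the mean member profile, which ADE17 weighs on most, were PHO5 (r = 0.98), RPS21A (0.98), RPP2A (0.98), YAT1 (0.98), IMD3 (0.97), LYS12 (0.97), RPL16B (0.97) and RPL21B (0.97). PHO5 is a secreted acid phosphatase, YAT1 a carnitine acetyltransferase and LYS12 an enzyme of lysine synthesis, while RPS21A, RPP2A, RPL16B and RPL21B encode cytosolic ribosomal proteins. The 5 most like ADE17 alone were SNO4 (r = 0.98), RPS21A (0.98), RPS15 (0.97), ADD37 (0.97) and SPO20 (0.97), a dim sporulation gene. Each of these has a smaller range than ADE17: SNO4 spans 0.78, SPO20 spans 0.99 and RPS21A spans 0.52 log2 units. These values rest on 7 samples in 4 groups, and genes are not independent replicates.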

How the data were processed

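The 8 arrays held 7 RNA samples of BY4741 yeast; groups came from the sample titles. Per the labels' protocols, total RNA was labelled as biotin-carrying cRNA and read on 1-colour arrays. The deposited values are log2 signals, the base judged from their range (2.62 to 15.01); per the submitters' processing notes the authors made them with RMA, version not given in the sources used here. Of 5814 probe sets, 5498 had 1 gene name, 0 several and 316 none, and 12 symbols were updated through RefSeq. For 47 genes with several probe sets the brightest was kept, which left 5449 genes; each member has 1. No coordinates are given, since no build is named for the array.

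Tests used limma 3.58.1 (lmFit, eBayes; R 4.3.3) over all 7 samples in 1 fit with 4 groups and 3 residual degrees of freedom, so the single 4 h sample is assumed to vary like the others. P-values were adjusted by Benjamini-Hochberg over all genes in each comparison, with 0.05 as the threshold. The labels do not tie replicates to separate cultures. The p-values may then reflect technical spread alone, and the number of arrays limits precision. The code was tested on simulated data. Members and lists were chosen with earlier results of these data known. The genes named were all members, list genes past the test in any comparison, ADE3, BAS1, PHO2, IMD2 and the other purine transport genes. Those most like the members by Pearson's r were named as well. Alternatives were median centring, quantile normalisation, a filter on dim genes, a trended prior, fits of single pairs of groups, a replicate block, single 4 h arrays, averaged probe sets and leaving out each replicate.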

Additional observations from a re-analysis of the deposited data

Results flagged for a closer look

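The change of ADE17 from the shared time-zero controls differed between times by a test of the difference itself; exposure to TFM and time cannot be told apart. It was lower at 2 h than at 1 h by -0.80 (adjusted p = 0.0233) and lower at 4 h than at 1 h by -1.10 (adjusted p = 0.00639), with 2 of 2 samples at 2 h and the sample at 4 h below both 1 h samples. Outside the genes tested, the median of the ribosomal RNA control probe sets was 2.27 log2 units higher on the 4 h arrays than in the controls; its part in the results was not tested.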

How the results depend on the processing

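Over 268 repeats of 19 changes of single genes with the alternatives, 217 kept their direction and side of the threshold, 38 were no longer past it, 13 came to pass it and 0 changed sign. Many of these outcomes were fixed in advance. The trended prior, the filter on dim genes, the block, fits of pairs and averaged probe sets cannot alter these changes themselves. Nor can leaving out a replicate of a group not compared. In comparisons without the 4 h sample, a single 4 h array left the adjusted p the same as well. Member changes not past the test were included only where an alternative called them, so the 13 follow from that choice. The member count at 1 h was 0 in all 15 alternatives. At 2 h it was 0 after quantile normalisation, and between 0 and 1 when a replicate was left out. At 4 h it was 2 over genes above the 25th percentile and with a trended prior (ADE13 and ADE17), 0 when only the 2 groups compared were fitted, and between 1 and 2 with a replicate left out. For 2 h against 1 h it was between 0 and 1 with a replicate left out. For 4 h against 1 h it was 2 over genes above the 25th percentile and with 4 h array 2 alone, 4 with a trended prior (ADE12, ADE13, ADE16 and ADE17), and between 1 and 2 with a replicate left out. For 4 h against 2 h it was 2 when only those groups were fitted (ADE13 and ADE17). In the F test it was 2 with a trended prior, and between 0 and 2 with a replicate left out; both values of 0 came without a 2 h replicate. The cause of these moves was not tested. Genes called over the whole table ran from 1 to 1005 at 1 h (272 as reported), 0 to 43 at 2 h (6), 1 to 353 at 4 h (243), 0 to 563 for 2 h against 1 h (144), 100 to 1327 for 4 h against 1 h (639), 0 to 647 for 4 h against 2 h (47) and 1 to 836 in the F test (355).

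Same-numbered samples did not deviate together clearly: the correlations of their deviations from the group means were 0.0959, 0.190 and 0.0333. With 2 samples a group, such values cannot decide whether same-numbered samples share a culture or a batch. With the replicate block 0 members passed at 2 h (ADE17 at adjusted p = 0.0635), 0 at 1 h and 1 for 2 h against 1 h. The 4 h sample has no pair, so its comparisons were not run with the block.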

Other observations

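Of the 68 genes of the members and lists, 8 (11.8%) differed by more than 0.4 log2 units between the 1 h replicates, close to the 9.49% of all genes that did. At 2 h 1 of the 68 did so, beside 1.01% of all genes, and in the controls 0 of the 68, beside 5.63%. These 8 were picked after their values were seen. FOL1, of folate synthesis, read 9.88 in 1 h replicate 1 and 9.09 in replicate 2. HIS7 read 9.70 and 8.98, HIS6 read 11.04 and 10.38, URA7 read 10.17 and 9.55, BAS1 read 11.13 and 10.62, and ADE6 read 12.49 and 12.04. AMD1 and FCY22 differed by 0.42 and 0.41. All 8 were higher in replicate 1, and the direction over all genes was not counted. The next in size went both ways: MET13 was higher in replicate 1 by 0.36, while FOL2 (-0.35), ADE13 (-0.33) and GCV1 (-0.32) were lower.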
